A study of Mus musculus with 81 samples.

Results

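The cells described here were microglia of Cx3cr1CreERT2/WT mice (Cre) after 5 weeks of 0.2% cuprizone that had been sorted as positive for both Clec7a and CD229 and then split by surface CD11c. The comparison held 6 of the 81 libraries of the series, chosen by their labels: 3 of the Clec7apos CD229pos CD11cpos gate (CD11cpos) and 3 of the Clec7apos CD229pos CD11cneg gate (CD11cneg). All 6 libraries came from adult male mice with 1 Cx3cr1 allele carrying CreERT2, a tamoxifen-dependent Cre recombinase expressed under the Cx3cr1 locus, and no floxed gene. Whether tamoxifen was given is not given in the sources used here. Cuprizone, which binds copper, leads to loss of oligodendrocytes and of myelin when fed. Brains of 2 to 6 mice were pooled for a sort, and the buffer contained sodium butyrate and flavopiridol per the labels' protocols. Because nothing ties a library to separate mice, p-values measure the spread between libraries, which may be technical.

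The same gate step was read in 3 other sets of 3 CD11cpos and 3 CD11cneg libraries. Mef2aKO mice (Cx3cr1CreERT2/WT::Mef2afl/fl, floxed for a transcription factor) had 5 weeks of cuprizone and the same gates. Cre mice had 6 weeks of cuprizone, and C57BL/6 wild-type mice (WT) had 4 weeks. The labels of the 6-week and 4-week gates name CD229 and CD11c but not Clec7a, so week and gate cannot be told apart in comparisons with them, nor genotype in the WT one. Mef2a averaged 572 CPM in Mef2aKO CD11cpos and 602 CPM in Mef2aKO CD11cneg libraries, beside 597 and 543 CPM in the Cre gates. These counts cover the whole transcript and do not check the deletion. Levels are also described in adult male Cre baseline microglia without cuprizone (3 libraries). The same is done for the Clec7apos CD229neg and Clec7aneg CD229neg gates of Cre mice at 5 weeks, both CD11cneg (3 libraries each).

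Microglia are the resident macrophages of the brain, and in demyelinated tissue they take up and digest myelin debris. Clec7a is a lectin receptor of activated microglia. CD229, encoded by Ly9, is a SLAM family receptor of immune cells. CD11c, encoded by Itgax, is an integrin alpha chain that pairs with the CD18 chain encoded by Itgb2, and CD11c-positive microglia are known from development, ageing and demyelination. Microglia in such lesions lower their homeostatic genes and raise a set of lipid, lysosomal and surface genes known as the disease-associated programme.

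Total counts were 8525555 to 10061341 in CD11cpos and 8823624 to 11863091 in CD11cneg libraries. Genes with a read numbered 15098 to 15360 in CD11cpos and 14845 to 15215 in CD11cneg libraries. Levels below are CPM, read counts scaled to a common library size after TMM normalization, and log2 fold changes are CD11cpos over CD11cneg ± SE from edgeR's quasi-likelihood fit. Genes passed the test at a Benjamini-Hochberg adjusted p under 0.05 over all 13204 genes tested.

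The gate was visible in the RNA of the sorted gene. Itgax had 957, 1014 and 912 CPM in the CD11cpos libraries and 307, 331 and 313 CPM in the CD11cneg libraries. The groups lay far apart, yet CD11cneg microglia still held about 317 CPM of Itgax RNA. The step was 3.03-fold, with a log2 fold change of 1.60 ± 0.12 (adjusted p = 7.98e-12). As these are bulk samples, fewer cells that express a gene and less RNA per cell cannot be told apart. The promoter of Itgax is shown because it belongs to the gene that defines the sort. It is taken from RefSeq (GRCm38.p6), plus strand, chr7:128129300-128129549, the 250 bases before the transcription start, with a match to the AP-1 motif TGANTCA in capitals.
Itgax: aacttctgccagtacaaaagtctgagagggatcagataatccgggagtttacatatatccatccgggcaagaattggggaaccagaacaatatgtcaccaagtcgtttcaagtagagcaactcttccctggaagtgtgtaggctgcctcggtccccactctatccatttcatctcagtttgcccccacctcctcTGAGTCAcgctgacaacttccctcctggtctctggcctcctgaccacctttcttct
Ly9 and Clec7a, on which both gates had already been selected, differed little. Ly9 had 359, 353 and 349 CPM in CD11cpos and 301, 298 and 275 CPM in CD11cneg libraries, which did not pass the test (0.28 ± 0.12, adjusted p = 0.136). Clec7a had 741, 738 and 709 CPM in CD11cpos and 611, 628 and 538 CPM in CD11cneg libraries, which passed narrowly (0.30 ± 0.10, adjusted p = 0.0333). Neither gene's groups overlapped. Trem2, a lipid receptor of microglia, averaged 586 ± 38.8 CPM in CD11cpos and 591 ± 6.97 CPM in CD11cneg libraries (SD, n = 3 each), and Mef2a did not pass either (0.14, adjusted p = 0.275).

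Across the transcriptome the step was broad, balanced and mostly small. Of 13204 genes, 1861 passed the test (14.1%). Of these, 904 were higher in CD11cpos (6.85%) and 957 were lower (7.25%). The median log2 fold change over all genes was 0.01. The 6 libraries did not overlap between gates for 1823 of the 1861 genes (98%), a separation that passing the test largely entails. The share without overlap over all genes tested was not counted. At least a 2-fold difference was reached by 161 higher genes (1.22%) and 140 lower genes (1.06%), of which 85 higher and 82 lower genes averaged at least 5 CPM. Leaving out 1 library at a time left 1169 to 1483 genes past the test, fewest without CD11cpos replicate 1.

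**Figure D1:**
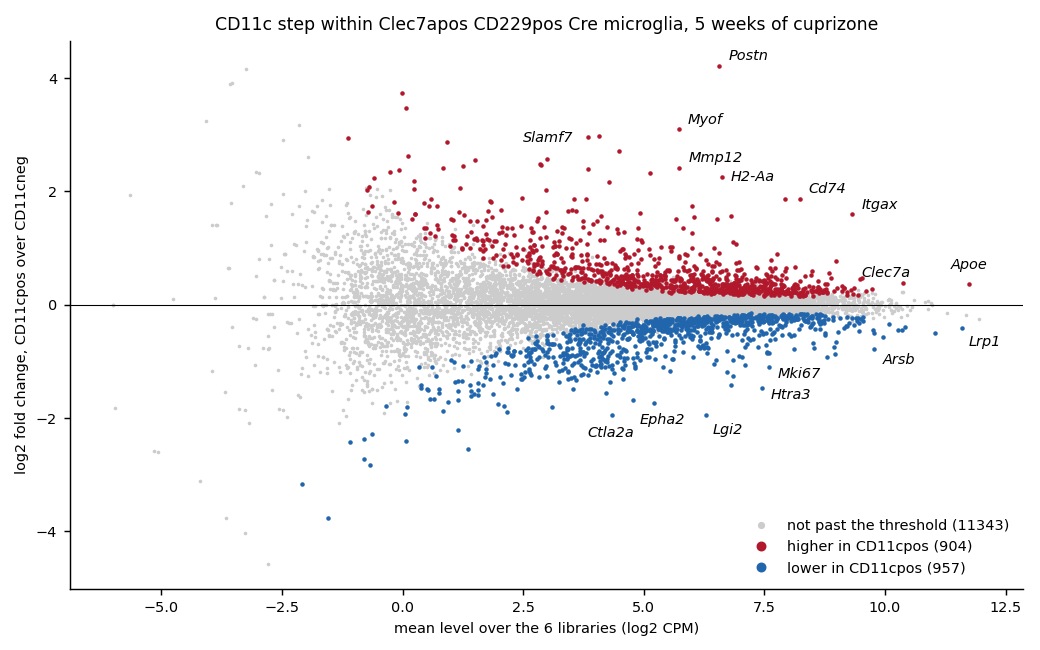
Mean level over the 6 libraries (log2 CPM, horizontal axis) and log2 fold change of CD11cpos over CD11cneg (vertical axis) for each gene tested. Red points are the 904 genes higher in CD11cpos, blue points the 957 lower, grey points those that did not pass, and most coloured points at high expression lie close to the zero line while Postn stands alone at the top.

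Postn showed the greatest rise among the genes averaging at least 5 CPM with no overlap between the gates. It encodes periostin, a secreted matrix protein that binds integrins. Postn had 175, 179 and 187 CPM in CD11cpos and 11, 9.5 and 8.49 CPM in CD11cneg libraries, an 18.7-fold difference (4.22 ± 0.13, adjusted p = 3.29e-22). Myof, which encodes the membrane repair and fusion protein myoferlin, had 92.2, 95.7 and 95.5 CPM in CD11cpos and 12.3, 11 and 9.92 CPM in CD11cneg libraries (3.10 ± 0.15, adjusted p = 7.05e-16). Both genes were nearly constant within each gate. Slamf7, a receptor of the family that also holds CD229, had 24, 23.4 and 29.1 CPM in CD11cpos and 2.59, 3.59 and 3.61 CPM in CD11cneg libraries (2.96 ± 0.25). Stra6l, a relative of the retinol-binding protein receptor, had 37.1, 38.9 and 40.8 CPM in CD11cpos and 3.45, 5.33 and 8.66 CPM in CD11cneg libraries (2.72). None of these genes overlapped between the gates.

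Further large rises were found in single genes of differing function. Mmp12, the macrophage elastase, had 88.3, 89.9 and 91.9 CPM in CD11cpos and 14.8, 18.5 and 17.4 CPM in CD11cneg libraries (2.42 ± 0.22). Atp6v0d2, a subunit of the proton pump that acidifies lysosomes, had 20.7, 29.5 and 22.3 CPM in CD11cpos and 4.51, 6.02 and 3.36 CPM in CD11cneg libraries (2.40 ± 0.24). Igf2r, the receptor that carries mannose 6-phosphate tagged enzymes to lysosomes, had 58.6, 59.6 and 55.9 CPM in CD11cpos and 9.11, 11.3 and 14 CPM in CD11cneg libraries (2.33 ± 0.17). Each was clearly separated by gate. Anpep, a membrane aminopeptidase, rose by 2.46 on the log2 scale, and Fxyd6, a modulator of the sodium pump, by 2.58. Klrb1a rose by 2.48, but its reads can be shared with close paralogs, so its level is uncertain.

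Among genes averaging at least 5 CPM with no overlap between the gates, the greatest falls were smaller than the greatest rises. Ctla2a, which encodes a small inhibitor of cysteine proteases, had 7.21, 8.8 and 9.2 CPM in CD11cpos and 33.4, 29 and 34.6 CPM in CD11cneg libraries (-1.95 ± 0.15). Its reads can be shared with a close paralog. Lgi2, a secreted leucine-rich repeat protein, had 29.1, 34.2 and 33.3 CPM in CD11cpos and 147, 110 and 113 CPM in CD11cneg libraries (-1.94 ± 0.14). The gates did not overlap for either gene. Epha2, an ephrin receptor kinase, had 16.1, 19.1 and 16.6 CPM in CD11cpos and 53.3, 53.9 and 63.9 CPM in CD11cneg libraries (-1.73 ± 0.10). Folr2, a folate receptor of border macrophages, had 12.6, 12.8 and 13.6 CPM in CD11cpos and 44.4, 36.4 and 45.1 CPM in CD11cneg libraries (-1.69 ± 0.13). Htra3, a secreted serine protease, had 88.8, 97 and 92.4 CPM in CD11cpos and 265, 244 and 262 CPM in CD11cneg libraries (-1.47 ± 0.10). Thbs2 (-1.81, a matrix protein), Plxna2 (-1.55, a semaphorin receptor), Notch4 (-1.41, a Notch receptor), Cd5l (-1.48, a secreted macrophage protein) and Cd28 (-1.37, a T cell costimulatory receptor) also fell, each without overlap.

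**Figure D2:**
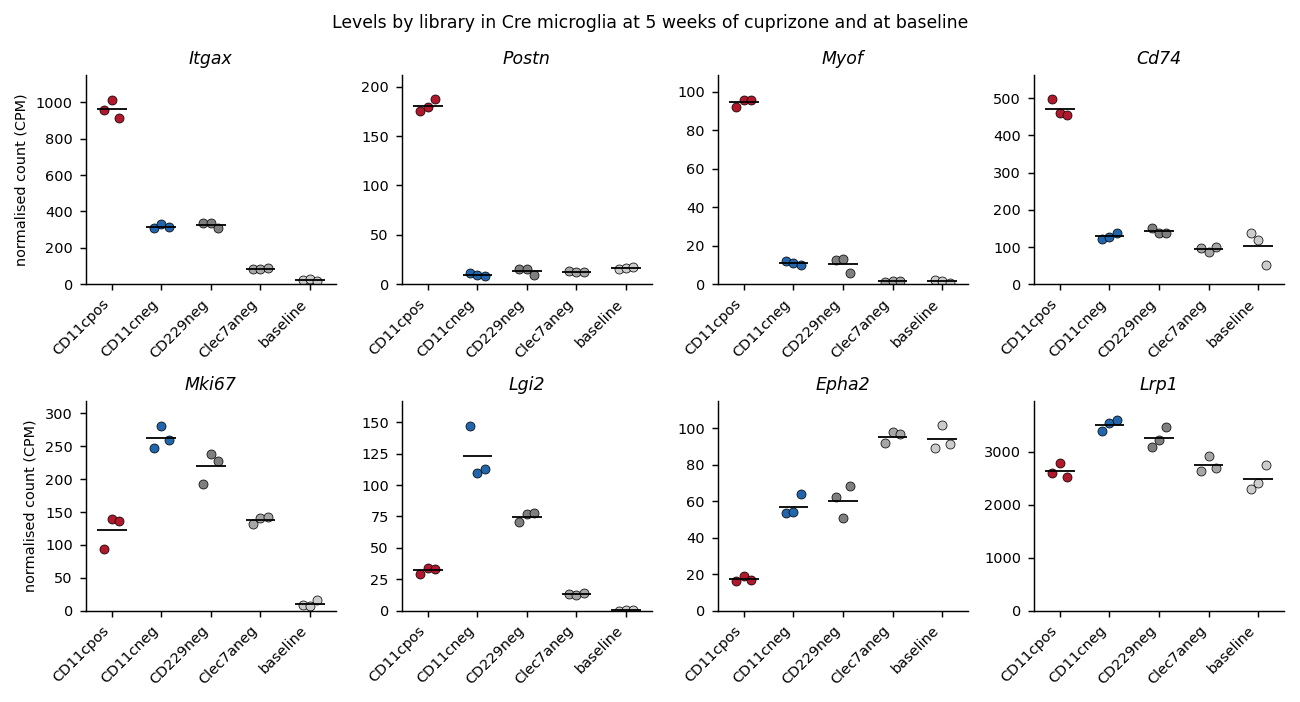
CPM (vertical axes) of 8 genes in each library of the 5-week Cre gates and of Cre baseline cells, where CD229neg is the Clec7apos CD229neg gate and Clec7aneg the Clec7aneg CD229neg gate; points are libraries and bars are group means. CD11cpos points lie apart from CD11cneg points in each panel, and Epha2, unlike Lgi2, is highest in Clec7aneg and baseline cells.

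The 4 greatest gains in absolute CPM, among genes with no overlap, belonged to Itgax and Cd74, which had large folds, and to Apoe and Tgfbr1, which had small ones. The 4 greatest losses, in Lrp1, Fn1, Arsb and Itgam, came with small folds. Apoe, the lipid carrier apolipoprotein E, had 3996, 4054 and 3528 CPM in CD11cpos and 3048, 3086 and 2841 CPM in CD11cneg libraries (0.37 ± 0.10). Tgfbr1, a TGF-beta receptor kinase, had 1535, 1498 and 1454 CPM in CD11cpos and 1130, 1213 and 1105 CPM in CD11cneg libraries (0.38 ± 0.07). Both were higher in every CD11cpos library than in any CD11cneg library. Lrp1, a scavenger receptor for lipoproteins, had 2600, 2792 and 2531 CPM in CD11cpos and 3390, 3547 and 3597 CPM in CD11cneg libraries (-0.41 ± 0.09). Arsb, a lysosomal sulfatase, had 617, 668 and 621 CPM in CD11cpos and 1113, 1120 and 1075 CPM in CD11cneg libraries (-0.79 ± 0.07). Fn1, fibronectin, had 1620, 1877 and 1719 CPM in CD11cpos and 2372, 2509 and 2478 CPM in CD11cneg libraries (-0.50 ± 0.16, adjusted p = 0.0283). No library overlapped for these genes, although the adjusted p of Fn1 reached 0.17 in an alternative setting.

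Among integrins and their activators, 4 of 17 tested genes were higher in CD11cpos and 2 were lower. Itgax, the gate gene itself, was 1 of the 4. For this list and those below, 6.85% of all genes tested were higher and 7.25% were lower. Beside Itgax, the alpha chain Itga4 rose by 1.62 ± 0.26 on the log2 scale, the beta chain Itgb8 by 1.66 ± 0.39 and Itga5 by 0.20 ± 0.07. Itgb8 was low, with 5.41, 4.64 and 5.54 CPM in CD11cpos and 1.53, 1.51 and 1.85 CPM in CD11cneg libraries. Itgam, which encodes CD11b, the other myeloid partner of CD18, had 1085, 1167 and 1092 CPM in CD11cpos and 1519, 1594 and 1418 CPM in CD11cneg libraries (-0.44 ± 0.09). Itgb3 fell by 0.74 ± 0.09. Per length, in the authors' TPM, Itgax and Itgam were level in CD11cpos, at 338 ± 13.3 TPM and 338 ± 11.1 TPM. In CD11cneg, Itgax stood at 111 ± 3.39 TPM and Itgam at 458 ± 20.2 TPM (SD, n = 3 each). The shared beta chain Itgb2 stood at 340 ± 11 TPM in CD11cpos and 339 ± 7.41 TPM in CD11cneg, and Itga4 was far lower in both, at 6.59 ± 0.656 TPM and 2.14 ± 0.252 TPM.

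By MHC class II presentation, phagocytes display digested peptides to helper T cells. Its genes were higher in CD11cpos for the class II chains themselves but not for the peptide loading chains H2-DMa, H2-DMb1 and H2-DMb2. Of 9 tested genes, 6 were higher and 1 was lower, with a median log2 fold change of 1.10, against 0.01 over all genes. H2-Aa, a class II alpha chain, had 175, 154 and 156 CPM in CD11cpos and 33.8, 32.5 and 35.2 CPM in CD11cneg libraries (2.25 ± 0.28, adjusted p = 5.87e-07). H2-Eb1, a beta chain, had 108, 86.6 and 100 CPM in CD11cpos and 28.5, 27.4 and 31.6 CPM in CD11cneg libraries (1.75 ± 0.24). H2-Ab1, the partner chain of H2-Aa, had 159, 158 and 153 CPM in CD11cpos and 70.5, 69.7 and 78.5 CPM in CD11cneg libraries (1.10 ± 0.18). All 3 chains were raised in every CD11cpos library. Cd74, the invariant chain, had 498, 460 and 456 CPM in CD11cpos and 122, 126 and 138 CPM in CD11cneg libraries (1.87 ± 0.18, adjusted p = 3.28e-09). Ciita, the coactivator that switches on class II transcription, had 13.8, 12.7 and 11.2 CPM in CD11cpos and 4.32, 1.74 and 3.03 CPM in CD11cneg libraries (2.03 ± 0.33, adjusted p = 3.84e-05). Thus chains, invariant chain and coactivator were all higher in CD11cpos.

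H2-DMa, a chain of the factor that exchanges peptides on class II, had 144, 152 and 146 CPM in CD11cpos and 185, 190 and 184 CPM in CD11cneg libraries, and so ran the other way (-0.34 ± 0.08, adjusted p = 0.00355). Its partner chains H2-DMb1 (0.15, adjusted p = 0.301) and H2-DMb2 (-0.25, adjusted p = 0.248) did not pass. H2-Oa, a chain of the factor that restrains that exchange, had 49.4, 44.8 and 49.3 CPM in CD11cpos and 29.5, 30 and 40 CPM in CD11cneg libraries (0.52 ± 0.12). The counts of 6 higher and 1 lower gene were the same in every alternative setting. Summed over the list, the libraries held 1174 to 1251 CPM in CD11cpos and 576 to 599 CPM in CD11cneg. Markers of dendritic cells, which carry both CD11c and class II, summed to 13.1 to 14.5 CPM in CD11cpos and 9.96 to 11.9 CPM in CD11cneg libraries, and none of the 8 tested of 10 passed. With only the compared groups fitted, 2 of them were higher, and 1 was with no filter or with the replicate block. B cell markers summed to 12.8 to 14.7 CPM in CD11cpos and 9.38 to 15.2 CPM in CD11cneg libraries, and Pax5 had no read.

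Class II promoters are shown for chains that rose and for H2-DMa, which fell. Class II promoters share a set of elements with a Y box nearest the start, bound by the NF-Y factor. All are from RefSeq (GRCm38.p6) and give the 250 bases before the start of transcription in the direction of the gene. H2-Aa is on the minus strand at chr17:34287824-34288073, H2-Eb1 on the plus strand at chr17:34305617-34305866 and H2-DMa on the plus strand at chr17:34125268-34125517. Capitals mark CTGATTGG, the Y box letters, in the H2-Aa and H2-Eb1 promoters, also the NF-kB letters GGGANTTCC in H2-Aa, and TGANTCA in H2-DMa.
H2-Aa: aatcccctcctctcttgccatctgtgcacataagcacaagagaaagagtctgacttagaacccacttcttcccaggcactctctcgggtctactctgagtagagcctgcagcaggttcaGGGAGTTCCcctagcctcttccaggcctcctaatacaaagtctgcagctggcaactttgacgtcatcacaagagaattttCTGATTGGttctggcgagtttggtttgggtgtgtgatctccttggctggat
H2-Eb1: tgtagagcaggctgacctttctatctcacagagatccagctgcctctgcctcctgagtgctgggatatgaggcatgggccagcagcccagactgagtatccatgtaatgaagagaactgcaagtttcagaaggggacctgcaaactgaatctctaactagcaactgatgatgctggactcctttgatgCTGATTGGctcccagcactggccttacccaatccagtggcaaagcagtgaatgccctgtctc
H2-DMa: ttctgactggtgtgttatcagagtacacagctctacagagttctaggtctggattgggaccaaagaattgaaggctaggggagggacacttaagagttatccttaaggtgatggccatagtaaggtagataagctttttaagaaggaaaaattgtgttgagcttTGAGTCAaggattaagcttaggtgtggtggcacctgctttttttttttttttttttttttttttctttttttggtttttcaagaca
The Y box letters, a motif chosen after the values were seen, began at position -51 from the start in H2-Aa, -62 in H2-Eb1 and -46 in H2-Oa. These exact letters were not in the windows of H2-DMa or H2-DMb1. A Y box that departs from them would not have been counted, so its absence there was not shown. The shorter letters ATTGG do occur in the H2-DMa sequence above. The promoters of H2-Ab1, Cd74, Ciita and H2-DMb2, of which the first 3 genes rose, were not examined. Of the 10137 tested genes whose promoter could be matched, 6.07% held these letters on either strand within 300 bases around the start. For the genes changed at least 2-fold at 5 CPM or more, the share was 6.67% of the 60 higher and 10.8% of the 65 lower genes with a promoter. The AP-1 letters TGANTCA stood in 10% of the higher and 9.23% of the lower promoters, against 4.77% of all, and the higher genes with them were Clec4a2, Cybb, Itgax, Mmp12, Olr1 and Slamf8. The E-box CACGTG stood in 10% of the higher and 6.15% of the lower promoters, against 10.5% of all. In all, 8 motifs were searched. In the same order, the NF-kB letters stood in 5%, 1.54% and 2.43%, and an interferon element in 6.67%, 4.62% and 3.14%. PU.1 letters stood in 0%, 3.08% and 3.37%, EGR letters in 1.67%, 3.08% and 1.31%, and MEF2 letters in 1.67%, 0% and 0.0986%. With 60 and 65 promoters, each share of the changed genes rests on few genes. These matches describe letters in a window and not binding.

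Class I presentation moved less. There, 3 of 14 tested genes were higher and none was lower, led by Nlrc5 (0.43 ± 0.07), the coactivator of class I genes. The other two were H2-Q7 and H2-Q4, whose reads can be shared with paralogs. Without CD11cneg replicate 2 the count was 1. Of 25 genes of the type I interferon response, Ifih1, a sensor of viral RNA, was higher (0.31 ± 0.07) and none was lower, with 2 higher without CD11cneg replicate 3 and 1 lower without CD11cneg replicate 2. The replicate block gave 4 higher and 2 lower interferon genes.

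Cell cycle genes were lower in CD11cpos almost throughout the list. Of 25 tested genes, 23 were lower and none was higher, with a median log2 fold change of -0.79. Mki67, a marker of cycling cells, had 93.1, 139 and 136 CPM in CD11cpos and 247, 281 and 260 CPM in CD11cneg libraries (-1.10 ± 0.16, adjusted p = 7.88e-06). Every CD11cpos library lay below every CD11cneg library, and CD11cpos replicate 1 was the lowest of all. Top2a, the DNA topoisomerase of dividing cells, fell by 1.05 ± 0.16, the mitotic kinase gene Plk1 by 1.10 ± 0.20, and the mitotic cyclin gene Ccnb2 by 1.06 ± 0.16. The replication helicase genes fell less, with Mcm6 at -0.33 ± 0.10 and Mcm2 at -0.72 ± 0.14. Ccne2 (adjusted p = 0.102) and Pcna (adjusted p = 0.539) did not pass.

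Summed over the list, CD11cpos libraries held 626 to 839 CPM and CD11cneg libraries 1166 to 1305 CPM. CD11cpos replicate 1 held the 626 CPM, and without it 14 of the 25 genes were lower past the test, against 14 to 22 without any 1 library. For scale, the sum was 254 to 310 CPM in Cre baseline microglia, 704 to 801 CPM in the Clec7aneg CD229neg gate and 1022 to 1142 CPM in the Clec7apos CD229neg gate of the same cuprizone mice. The CD11cpos level was therefore above baseline and below both other Clec7apos gates. In the Mef2aKO step 12 of 25 genes of this list were lower, where 5.6% of all genes were. In the WT 4-week step 24 of 25 were lower, where 11.6% of all genes were. In the 6-week step 4 of 25 were lower, beside 8.53% of all genes. No gene of the list was higher in any of these steps.

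**Figure D3:**
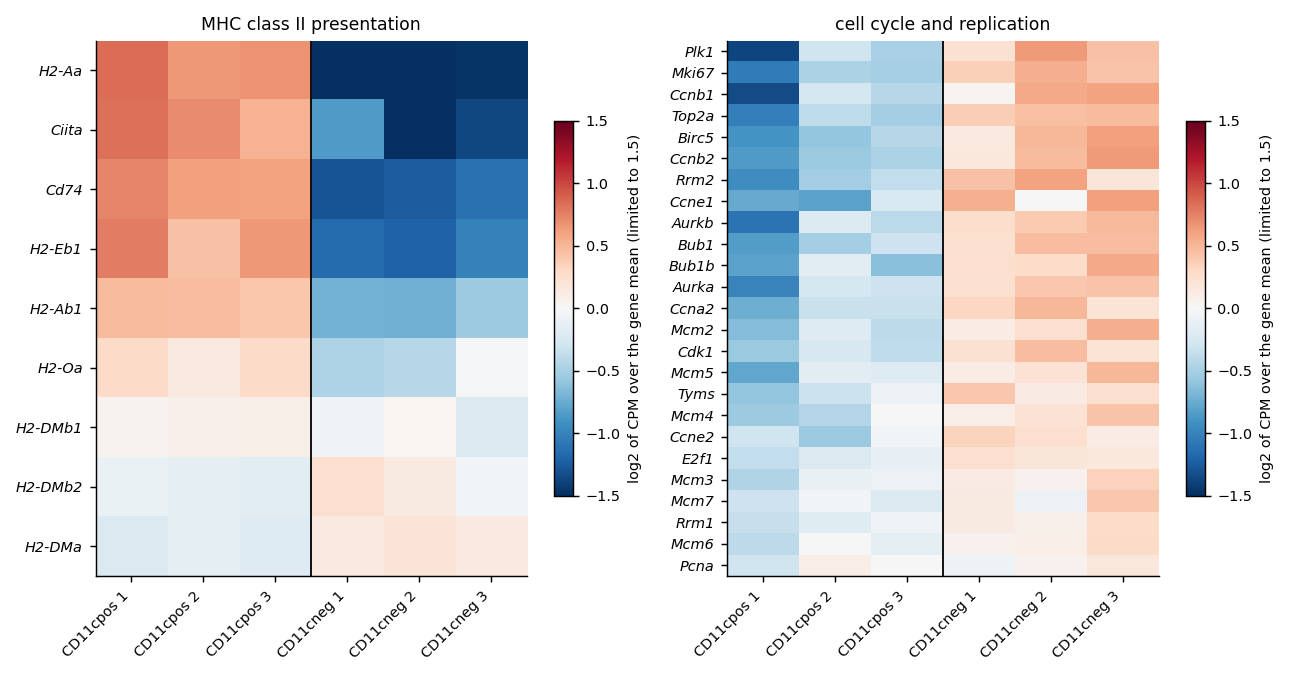
Level of each MHC class II and cell cycle gene in each of the 6 libraries as colour (log2 of CPM over the gene's mean, limited to 1.5 in either direction), with CD11cpos columns left of CD11cneg columns. Class II chains are high in the CD11cpos columns while H2-DMa is not, and most cell cycle genes are low there, many of them lowest in CD11cpos replicate 1.

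Homeostatic microglial genes also fell together. Of 24 tested, 12 were lower and none was higher, with a median of -0.22. The fructose transporter gene Slc2a5 fell by 0.93 ± 0.07, the lens crystallin gene Crybb1 by 0.92 ± 0.15, Ecscr by 0.83 ± 0.10, and Tmem119, a membrane protein used to mark microglia, by 0.66 ± 0.08. P2ry12, the ADP receptor that guides microglial processes, fell by 0.37 ± 0.08. The list summed to 14061 to 15119 CPM in CD11cpos and 16690 to 17108 CPM in CD11cneg libraries, so most of the homeostatic RNA remained. Of 10 defining microglial markers, 3 were lower, and their sum stayed at 8180 to 8789 CPM in CD11cpos and 9173 to 9471 CPM in CD11cneg libraries. Cx3cr1 itself had 1247, 1193 and 1164 CPM in CD11cpos and 1241, 1255 and 1346 CPM in CD11cneg libraries and did not pass (-0.09, adjusted p = 0.462).

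Disease-associated genes moved in both directions. Of 24 tested genes, 7 were higher and 2 were lower, with a median of 0.16, beside 6.85% higher and 7.25% lower over all genes. Itgax, the gate itself, was 1 of the 7. Lgals3, which encodes galectin-3, rose by 1.08 ± 0.09, the growth factor gene Igf1 by 0.41 ± 0.12 and Lyz2, lysozyme, by 0.30 ± 0.09. The cystatin gene Cst7 fell by 0.50 ± 0.13, and Ch25h, which makes 25-hydroxycholesterol, by 0.50 ± 0.13. The count of higher genes was 3 without CD11cneg replicate 3, CD11cpos replicate 1 or CD11cpos replicate 2, and that of lower genes was 1 without CD11cpos replicate 1. Fitting only the compared groups gave 11 higher and 5 lower genes.

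Secreted factors were divided, with 5 of 19 higher and 6 lower and a median of 0.01, beside 6.85% higher and 7.25% lower over all genes. Apart from Postn, Hbegf (0.82 ± 0.24), an EGF receptor ligand, and Thbs1 (0.41 ± 0.12), a matrix protein, were higher. Gas6, which bridges dying cells to the TAM receptors, had 339, 378 and 345 CPM in CD11cpos and 678, 667 and 602 CPM in CD11cneg libraries (-0.87 ± 0.10). The gates were far apart for it. Vegfa, an angiogenic factor, fell by 0.64 ± 0.11 and Sparc, a matrix-binding protein, by 0.39 ± 0.08. The higher count was 2 without CD11cneg replicate 1 or 3 or CD11cpos replicate 1 or 2, and 3 without CD11cpos replicate 3. The lower count was 3 without CD11cpos replicate 1.

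Of the matrix proteases and their inhibitors, 3 of 17 were higher and 4 were lower, beside 6.85% and 7.25% of all genes. Beside Mmp12, the membrane protease Mmp14 rose by 1.00 ± 0.09 and the plasminogen activator Plau by 0.59 ± 0.08. The protease inhibitor Serpine2 fell by 0.46 ± 0.08, and the proteases Adamts1 and Adam9 by 0.51 ± 0.14 and 0.38 ± 0.07.

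Lipid and lysosomal lists showed changes in single genes. Over all genes, 6.85% were higher and 7.25% were lower, and counts as small as 1 of 24 lie near those shares. In lipid uptake and storage, 3 of 19 were higher, the fatty acid receptor Cd36 (1.15 ± 0.24), the triglyceride enzyme Dgat2 (1.06 ± 0.27) and the lipase Mgll (0.59 ± 0.11), and Lrp1 was lower. Of 16 sterol efflux and liver X receptor genes, Apoe and Apoc1 (0.52 ± 0.12) were higher and 5 were lower, among them the lipid synthesis regulator Srebf1 (-0.51 ± 0.05) and the desaturase Scd2 (-0.45 ± 0.08). Without CD11cpos replicate 1, 3 of these were lower. Of 22 cholesterol synthesis genes, Fdft1, squalene synthase, was lower (-0.37 ± 0.08). Among 20 lysosomal membrane genes, Atp6v0d2 and the metal transporter Slc11a1 (0.37 ± 0.07) were higher. Among 24 lysosomal hydrolases, 1 was higher (Ctsc, none without CD11cneg replicate 3, CD11cpos replicate 1 or CD11cpos replicate 3) and 3 were lower, including Gusb (-0.35 ± 0.08). In glycolysis, 3 of 17 were lower (Ldha at -0.35 ± 0.08), and in oxidative phosphorylation 1 of 24 was (Ndufa9). With only the compared groups fitted, these counts were 8 and 3. That fit also gave 4 higher sterol efflux genes, 5 higher and 2 lower lipid uptake genes, 4 higher lysosomal membrane genes, and 2 higher and 6 lower hydrolases. The replicate block gave 9 lower glycolysis genes.

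Inflammatory genes rose and fell one by one, and the counts below stand beside 6.85% higher and 7.25% lower over all genes. Of 19 chemokines and receptors, 4 were higher, namely Ccl5 (1.14 ± 0.20), Cxcr4 (1.02 ± 0.14), Cxcl9 (0.82 ± 0.24) and Cxcl16 (0.60 ± 0.07). Cxcl9 lost its call in 3 settings (adjusted p up to 0.124). Ccl2 was lower, but not once any 1 library was left out, and fitting only the compared groups gave 7 higher and 3 lower genes. Il1b, the interleukin-1 beta gene, had 60, 49.3 and 56 CPM in CD11cpos and 22.7, 25.6 and 33.6 CPM in CD11cneg libraries (1.01 ± 0.12). It was separated by gate, whereas Socs3, a feedback inhibitor of cytokine signalling, was lower with a wide error (-0.83 ± 0.22) and lost its call in 2 settings (adjusted p up to 0.0579). Of 20 cytokine and NF-kB feedback genes, 4 were higher and 2 lower. The higher count was 1 without CD11cneg replicate 1 or 2 and 2 without CD11cpos replicate 1 or 3, and the lower count was 1 without CD11cpos replicate 2 or 3. Of 16 Fc and complement genes, C3 (0.79 ± 0.09), factor B (Cfb, 0.96 ± 0.17) and C3ar1 (0.33 ± 0.07) were higher, and C4b (-0.63 ± 0.15), C5ar1 (-0.50 ± 0.07), Fcgr2b (-0.34 ± 0.07) and Itgam were lower. Of 11 phosphatidylserine and TAM receptor genes, Cd300lb was higher (1.26 ± 0.12), and Gas6 and the scavenger receptor Stab1 (-0.57 ± 0.07) were lower, with 2 higher when only the compared groups were fitted. In the TREM2 and DAP12 pathway, 1 of 16 was lower (Pik3cg at -0.17 ± 0.05), and none without CD11cneg replicate 3 or CD11cpos replicate 2, while the replicate block gave 1 higher and 2 lower.

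Among 26 lineage and state transcription factors, 3 were higher and 2 lower, beside 6.85% and 7.25% of all genes. Batf3 (0.79 ± 0.16), known for its need in cross-presenting dendritic cells, the lysosomal regulator Tfeb (0.46 ± 0.08) and its relative Mitf (0.42 ± 0.09) were higher. Sall3 (-0.24 ± 0.06) and Smad3 (-0.30 ± 0.06) were lower. Of 23 immediate early genes, 5 were higher and 1 lower. Egr2 had 101, 108 and 97.3 CPM in CD11cpos and 67.8, 70.4 and 68 CPM in CD11cneg libraries (0.57 ± 0.10, adjusted p = 5.39e-05). Egr3, from the same family, had 32.6, 29.2 and 31.4 CPM in CD11cpos and 11.6, 13.7 and 13.7 CPM in CD11cneg libraries (1.26 ± 0.16). Both were tight within gates, but the list sum was 5437 CPM in CD11cpos replicate 1, against 4465 and 4493 CPM in the other two CD11cpos libraries. Without CD11cpos replicate 1 the list counted 2 higher and 3 lower genes. Of 21 Polycomb genes, Cbx7 (0.57 ± 0.10) and Phf1 (0.29 ± 0.07) were higher, and Ezh2 (-0.50 ± 0.13), the methyltransferase, and Phf19 were lower. Without CD11cpos replicate 1 the Polycomb counts were 1 higher and 1 lower, and with no filter 4 were higher. None of 24 ribosomal protein genes and none of 15 dissociation and stress genes passed, although 1 stress gene was higher without CD11cpos replicate 2, and up to 1 was higher and 1 lower in other settings.

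**Figure D4:**
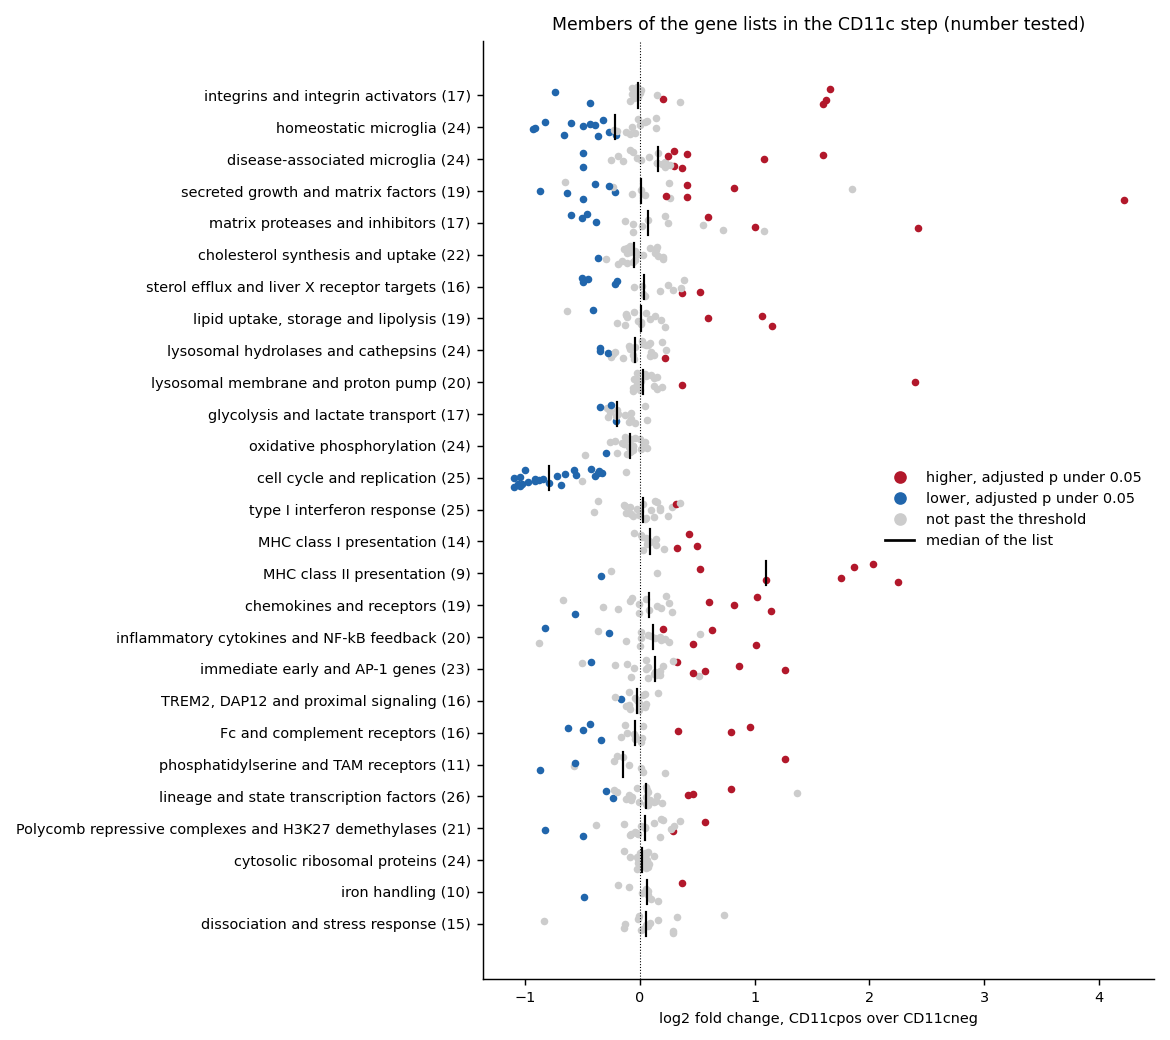
Log2 fold change of CD11cpos over CD11cneg (horizontal axis) for each tested gene, by gene list (rows), with coloured points for genes past the test and grey points for the others. Cell cycle genes lie left of zero, as do the homeostatic genes past the test, most class II genes lie to the right, and ribosomal genes cluster at zero.

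Markers of other cells were low, and a few moved. Monocyte markers summed to 21.6 to 28.4 CPM in CD11cpos and 15.9 to 18.7 CPM in CD11cneg libraries, with 1 of 4 tested higher (Ms4a4c) and no read of Chil3. T and NK cell markers summed to 7.73 to 9.59 CPM in CD11cpos and 4.32 to 6.64 CPM in CD11cneg libraries. Klrb1c was higher among the 2 tested, but not without CD11cneg replicate 1 or CD11cpos replicate 3, and the T cell receptor genes Cd3e, Cd3d and Cd3g had no read. Border macrophage markers summed to 427 to 457 CPM in CD11cpos and 382 to 452 CPM in CD11cneg libraries, where of 10 tested Ms4a7 was higher (1.16 ± 0.24) and Folr2 lower. Astrocyte markers summed to 112 to 128 CPM in CD11cpos and 98.3 to 106 CPM in CD11cneg libraries, with Gfap higher (1.38 ± 0.27), as 1 of 6 tested. Endothelial markers summed to 268 to 276 CPM in CD11cpos and 287 to 320 CPM in CD11cneg libraries, where of 5 tested Vwf was higher (1.13 ± 0.37) and Kdr (-0.49 ± 0.12) and Cdh5 (-0.98 ± 0.29) were lower. The call of Vwf was lost in 5 of the 6 fits that left out 1 library, and 1 endothelial gene was lower without CD11cneg replicate 3 or CD11cpos replicate 2. Oligodendrocyte markers summed to 183 to 200 CPM in CD11cpos and 181 to 196 CPM in CD11cneg libraries, with none of 5 past the test. The part of these cells in the results above was not tested.

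Across the 5-week gates, the genes higher in CD11cpos at 2-fold or more were mostly highest in that gate. Of the 85 at 5 CPM or more, 77 had their highest mean in CD11cpos and 7 in baseline microglia. Their median was 19.7 CPM in CD11cpos, 6.98 in CD11cneg, 8.34 in Clec7apos CD229neg, 4.93 in Clec7aneg CD229neg and 3.33 in baseline cells. The 82 lower genes had a median of 8.47 CPM in CD11cpos, 18.8 in CD11cneg, 15.8 in Clec7apos CD229neg, 9.12 in Clec7aneg CD229neg and 1.69 in baseline cells. Of these, 71 had their highest mean in CD11cneg. As these genes were chosen by the step itself, the order of the last gates is a description.

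The step was then read in sorts with no library in common. Of the 904 higher genes, 469 (51.9%) were also higher in the Mef2aKO step, where 5.14% of all genes were higher, and none was lower. At 4 weeks in WT mice, 748 of the 892 tested (83.9%) were higher, against 12.2% of all genes there, and none was lower. In Cre mice at 6 weeks, 363 (40.2%) were higher, against 8.64% of all genes, and 59 were lower. Of the 957 lower genes, 445 (46.5%) were lower in Mef2aKO (5.6% of all), 772 of 950 (81.3%) at 4 weeks (11.6%) and 248 of 949 (26.1%) at 6 weeks (8.53%). Opposite calls numbered 1, 0 and 45 in that order. Fewer Mef2aKO genes, 804 to 840 against 1419, passed without CD11cneg replicate 2 or CD11cpos replicate 1 or 3 of that genotype, and 1917 of 2994 passed at 4 weeks without CD11cpos replicate 2. Seen from the other sorts, the shared higher genes were 69.1% of those higher in Mef2aKO, 48.8% of those at 4 weeks and 31.9% of those at 6 weeks. Genes passing the test with the same sign in all 4 sorts numbered 248 higher and 157 lower.

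Over 10555 genes averaging at least 5 CPM, the log2 fold changes of the Cre 5-week step had a Pearson r of 0.88 with the WT 4-week step, 0.784 with the Mef2aKO step and 0.433 with the 6-week step. Spearman's rho was 0.768, 0.656 and 0.163 for the same pairs. These are correlations across genes, which are not independent replicates. Postn rose in all 4, by 4.22 in Cre at 5 weeks, 3.60 in Mef2aKO, 3.58 at 6 weeks and 4.47 at 4 weeks, and Myof by 3.10, 3.05, 2.87 and 3.10. Both were steady in every sort. H2-Aa rose by 2.25 in Cre at 5 weeks, 2.35 in Mef2aKO and 2.25 at 4 weeks, while its 6-week value of 1.04 did not pass (adjusted p = 0.066) and the difference of the 5-week from the 6-week step was 1.21 (adjusted p = 0.0606). The genes lower by 2-fold or more in Cre at 5 weeks had a median of -1.24 there and -0.60 in Mef2aKO, while those also tested in WT at 4 weeks had -1.23 in Cre and -1.26 in WT. Those higher by 2-fold or more had a median of 1.37 in Cre and 1.28 in Mef2aKO. Because both sets were chosen by their size in Cre, a smaller median elsewhere is partly set by that choice. Among the lower genes, Plxna2 was at -1.55 in Cre at 5 weeks, -0.47 in Mef2aKO, 0.02 at 6 weeks and -1.92 at 4 weeks.

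**Figure D5:**
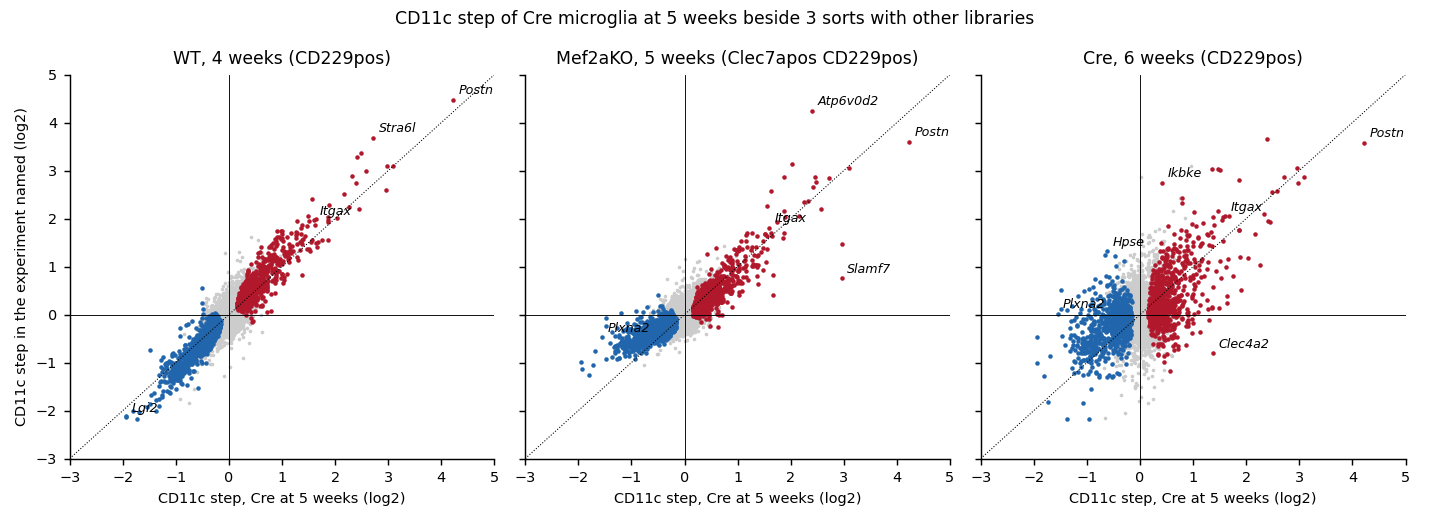
Log2 fold change in the Cre 5-week step (horizontal axes) against that in the WT 4-week, Mef2aKO 5-week and Cre 6-week steps (vertical axes) for genes averaging at least 5 CPM, with red and blue points for genes higher and lower in the Cre 5-week step. Points follow the diagonal most closely for the WT 4-week step and scatter most for the 6-week step.

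A direct test of the difference between the Cre and Mef2aKO steps at 5 weeks passed for 7 of 13204 genes (0.053%), 1 with the greater value in Cre (0.00757%) and 6 with the smaller (0.0454%). Slamf7 averaged 25.5 CPM in Cre CD11cpos and 3.27 CPM in Cre CD11cneg libraries, beside 7.63 and 4.56 CPM in the same gates of Mef2aKO, and its step was greater in Cre by 2.20 ± 0.37 (adjusted p = 0.0168). Epha2 averaged 17.3 CPM in Cre CD11cpos and 57 CPM in Cre CD11cneg, beside 39 and 80.9 CPM in Mef2aKO, a difference of -0.68 ± 0.13 (adjusted p = 0.0377). Ikbke, a kinase of innate signalling, averaged 97.9 CPM in Cre CD11cpos and 73 CPM in Cre CD11cneg, beside 75.2 and 31.3 CPM in Mef2aKO (-0.84 ± 0.15, adjusted p = 0.0168). The Slamf7 step was thus greater in Cre and the Ikbke step smaller. These calls are few and unstable. Leaving out Cre CD11cneg replicate 3 or CD11cpos replicate 1 left 2 genes, and leaving out Cre CD11cpos replicate 3 left 0. Among the Mef2aKO libraries, leaving out CD11cneg replicate 1 or 2 left 1 gene, CD11cneg replicate 3 left 4, CD11cpos replicate 1 left 0 and CD11cpos replicate 3 left 3. At an unadjusted p under 0.05, 649 genes (4.92%) passed with all libraries, and DESeq2 called 15.

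A test of the 5-week against the 6-week Cre step passed for 1377 of 12714 genes (10.8%), 706 with the greater value at 5 weeks (5.55%) and 671 with the smaller (5.28%). Without 5-week CD11cpos replicate 1 the count was 913, and without 6-week CD11cpos replicate 2 it was 901. For Clec4a2, a C-type lectin gene with close paralogs, the direction turned over, with 19.2 CPM in CD11cpos and 7.4 CPM in CD11cneg at 5 weeks, and 22.2 and 39.2 CPM in those gates at 6 weeks (2.17 ± 0.20, adjusted p = 1.4e-07). Ikbke averaged 97.9 CPM in CD11cpos and 73 CPM in CD11cneg at 5 weeks, and 71.5 and 10.4 CPM at 6 weeks (-2.33 ± 0.21, adjusted p = 1.4e-07). For both genes the weeks differed more in CD11cneg than in CD11cpos. Hpse, heparanase, averaged 104 CPM in CD11cpos and 159 CPM in CD11cneg at 5 weeks, and 68.5 and 27.3 CPM at 6 weeks (-1.93 ± 0.23).

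By list, 11 of 23 disease-associated genes had a lower log2 fold change at 5 weeks than at 6 weeks, and none a higher one. Over all genes tested, 5.28% had a lower and 5.55% a higher value at 5 weeks. Cst7 (-0.50 at 5 weeks and 0.50 at 6 weeks) and Ch25h (-0.50 and 0.55) passed in opposite directions. Apoe rose by 0.37 at 5 weeks and 1.33 at 6 weeks, a difference of -0.96, and Gpnmb, a lysosomal glycoprotein, stood at 0.19 and 1.61 (-1.43). Of 16 glycolysis genes, 10 had a lower log2 fold change at 5 weeks. Among them was Ldha, which was lower in CD11cpos at 5 weeks (-0.35) and higher at 6 weeks (0.31). In the 6-week step 12 of 17 glycolysis genes were higher, where 8.64% of all genes were, and none was lower. Class II differed in 1 of 8 genes (H2-DMa) and the cell cycle in 1 of 24 (Cdk1), beside 10.8% of all genes in either direction. Counts this small do not show that these steps were alike at both weeks. The titles of 2 of 3 libraries in each 6-week gate carry a PE150 tag that the labels leave unexplained, and with those libraries alone the test passed for 709 genes.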

How the data were processed

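Polyadenylated RNA of sorted microglia was sequenced as strand-specific libraries, per the labels. The authors deposited raw counts per gene (25124 genes, 1 RefSeq transcript each) and TPM; these TPM values sum to 506330 to 512644 per library. Fastp 0.20.0, STAR 2.7.0f, HOMER 4.11, DESeq2 and the mm10/GRCm38 build are named in the submitters' processing notes, without the role of each. TPM values served only to compare integrin levels.

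Counts of 29 libraries of the 5-week table were fitted with edgeR 4.0.16 in R 4.3.3 (limma 3.58.1): filterByExpr by group, TMM, 1 mean per group and quasi-likelihood F tests, with 13204 genes and 19 residual degrees of freedom. Standard errors are the log2 fold change over the square root of F. The 6-week (13187 genes) and WT 4-week (12579 genes) tables were fitted likewise. The 23 libraries of the 6-week fit included those of adult male Egr2KO mice (Cx3cr1Egr2KO in the titles), which entered no comparison here. For the test of 5 against 6 weeks both tables were joined over the 23708 genes with the same transcript, leaving out 1416, among them Stra6l and Folr2, and 12714 were tested. Promoters of RefSeq (GRCm38.p6) were used where their start lay within 1000 bases of the deposited transcript start. Code was tested on simulated data.

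Named genes were the gate and marker genes, those with no overlap between gates and at least 5 CPM that had the greatest folds (12 per direction) or changes in CPM (4 per direction), up to 4 members per list, and 6 per direction for each difference between steps. Other list members are given from the complete list results. A few genes that these rules name are not reported here. The members and lists were chosen with earlier results of these data known. Replicates differed by 1.96 to 5.77 times counting noise (chi-square per degree of freedom). CD11cneg replicate 3 gave 5.77 and 5.65 against the other CD11cneg libraries, and all other pairs lay between 1.96 and 2.67. Alternatives were DESeq2 1.42.0, its size factors in edgeR, no filter, only the compared groups, a replicate block, 6-week PE150 libraries only and each library left out.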

Additional observations from a re-analysis of the deposited data

Results flagged for a closer look

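The CD11c step differed between Cre and Mef2aKO microglia at 5 weeks for 7 genes, tested as an interaction in edgeR, and each value is the Cre step minus the Mef2aKO step on the log2 scale. Slamf7 had the greater step in Cre by 2.20. The other values were -0.68 for Epha2, -0.92 for Folr2, -0.91 for Pde2a, a phosphodiesterase, -0.84 for Ikbke, -0.62 for Tspan9, a tetraspanin, and -0.58 for Adarb1, an RNA-editing enzyme. Pde2a averaged 26.8 CPM in Cre CD11cpos and 37.7 CPM in Cre CD11cneg, beside 57 and 43.2 CPM in Mef2aKO.

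The Cre step differed between 5 and 6 weeks for 1377 genes, where week and gate cannot be told apart. Each value is the 5-week minus the 6-week log2 fold change, so a positive one can come from a rise at 5 weeks or a fall at 6 weeks. Positive values included Hlf (2.93), Sema4b (2.38), Tlr5 (2.29), Clec4a2 (2.17), Gpr165 (2.07) and Il7r (1.99). For Il7r and Tlr5 the gates lay close at 5 weeks, and CD11cpos was the lower gate at 6 weeks. Il7r, the interleukin-7 receptor, averaged 6.01 CPM in CD11cpos and 5.25 CPM in CD11cneg at 5 weeks, and 10.6 and 40.6 CPM at 6 weeks. Tlr5, the flagellin receptor, averaged 4.28 CPM in CD11cpos and 3.69 CPM in CD11cneg at 5 weeks, and 6.27 and 28.8 CPM at 6 weeks. Negative values included Ikbke (-2.33), Acod1 (-2.13), Hpse (-1.93), Cox6a2 (-1.89), Creg2 (-1.69) and Xdh (-1.68). Acod1, the itaconate enzyme, averaged 7.61 CPM in CD11cpos and 3.93 CPM in CD11cneg at 5 weeks, and 7.58 and 0.872 CPM at 6 weeks.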

How the results depend on the processing

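The Cre 5-week step passed for 1169 to 1483 genes with 1 library left out (583 to 735 higher, 586 to 748 lower), against 1861 with all, and all other settings stayed within 1.5 times. Left-out ranges were 804 to 1775 for the Mef2aKO step, 1512 to 2639 at 6 weeks, 1917 to 2846 at 4 weeks, 0 to 7 for Cre minus Mef2aKO and 901 to 1926 for 5 minus 6 weeks. Cre minus Mef2aKO gave 33 genes with no filter, 15 with DESeq2 and 19 with only the compared groups, and 5 minus 6 weeks gave 709 with PE150 libraries only; the cause was not tested. Trem2 ran between -0.04 and 0.04 with 1 library left out, turning positive without CD11cpos replicate 3 (adjusted p = 0.877). List counts moved by over 1.5 times in 60 cases of other settings, mostly with only the compared groups fitted, no filter or the replicate block, while class II kept 6 higher and 1 lower throughout. Of 115 named genes, 18 lost their call in at least 1 of 11 settings, among them Clec7a (adjusted p up to 0.162) and Fn1.

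No label says that a replicate number marks shared mice or a shared sort, although barcodes in the titles run consecutively across the Cre 5-week gates within a number. Residual correlations of same-numbered libraries were 0.0601, 0.0592 and 0.0269 in the Cre 5-week step, below the 0.1 used to accept pairing. They were 0.0622, 0.143 and 0.0391 in the Mef2aKO step, 0.178, 0.134 and 0.0939 at 6 weeks, and 0.0447, 0.0414 and 0.0774 at 4 weeks. All were positive. In the Cre 5-week, 6-week and 4-week steps each library correlated best with its own number. The same held in Mef2aKO except for CD11cpos replicate 3, at 0.0403 with CD11cneg replicate 1. Some of the same-number values exceed 0.1, yet those steps were also fitted without pairing, so pairing is not settled. A replicate block gave 2590 genes in the Cre 5-week step, 2197 in the Mef2aKO step, 3245 at 6 weeks and 4018 at 4 weeks. It gave 35 for Cre minus Mef2aKO and 2517 for 5 minus 6 weeks.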
